A study of Homo sapiens with 2 samples.

Results

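The genes described here are those the authors listed as changed after ezetimibe under 4 KEGG pathways of messenger RNA handling, namely Spliceosome, RNA transport, mRNA surveillance pathway and RNA degradation. Genes also listed under 5 other pathways (protein processing in the endoplasmic reticulum, mTOR signaling, Hippo signaling, glycolysis and ribosome) were left out. The 4 pathways list 146 genes together, 11 of them were left out, and 135 members remained, of 2238 distinct genes in the authors' deposited table. Of the 135 members, 40 were listed as up and 95 as down, a share up of 29.6%, against 32.7% of the 2103 other listed genes. Among the table's 8877 background genes, 25.2% were listed as changed, 8.2% as up and 17.0% as down. The members were chosen by the authors' call of change in this same comparison, so these counts describe them and carry no test.

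RNA came from SNU-449, an established human hepatocellular carcinoma line, labelled as liver. There was 1 library of control cells, for which the labels name no vehicle, and 1 library of cells given ezetimibe for 24 h, with no dose stated. Ezetimibe lowers blood cholesterol by blocking NPC1L1, the protein through which gut cells take up sterols. For a single gene the authors' deposited table holds its direction alone, so no level in either library can be given, and with 1 library a condition no difference has a replicate check. The comparison names the ezetimibe cells first, and up was therefore taken to mean higher in them. Neither the threshold behind a listing nor the sequencing depth is stated in any source used here. A gene that is not listed may have been unchanged by that threshold, not expressed, or not among the background genes. Of 9 hepatocyte markers, 5 were listed, all as down (FGA, FGB, FGG, CPS1 and AFP), and the line's identity cannot be checked further without levels. Of the markers of other cells, 2 of 4 for cholangiocytes and 3 of 3 for fibroblasts were listed as down, 1 of 3 for leukocytes (CD68) as up and 0 of 2 for endothelium were listed. Their part in the results was not tested. In RNA from a whole culture, a change in which cells are present and a change per cell cannot be told apart.

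A messenger RNA is made in steps that share proteins. The spliceosome, built from small nuclear ribonucleoproteins (snRNPs), cuts introns out, the cleavage and polyadenylation machinery forms the 3′ end, and export factors carry the finished message through the nuclear pore. In the cytoplasm the poly(A) tail is shortened, the cap is removed, and exonucleases degrade the body from either end, while nonsense-mediated decay removes messages with early stop codons.

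RNA transport and RNA degradation held somewhat larger shares of listed genes than the background, and Spliceosome and mRNA surveillance about the same. In the authors' deposited table, 32.1% of the 187 background genes of RNA transport were listed (60 genes, rich factor 1.27, authors' p = 0.0625, q = 0.215), where the rich factor is the listed share of a pathway over that of all background genes. In the authors' deposited table the share was 31.4% of 102 genes for RNA degradation (32 genes, authors' p = 0.191), 26.7% of 176 for Spliceosome (47 genes, authors' p = 0.630) and 24.8% of 101 for mRNA surveillance (25 genes, authors' p = 1). Of all background genes 25.2% were listed. Spliceosome and mRNA surveillance lie near that share, and RNA transport and RNA degradation (rich factor 1.24) above it. After the subtraction, Spliceosome kept 12 members up and 31 down, RNA transport 18 and 39, mRNA surveillance 4 and 18, and RNA degradation 8 and 23. The pathways share genes: 14 members are under 2 of them, and MAGOHB and NCBP1, both listed as down, are under 3. Of the members under 2 pathways, the export receptor genes NXF1 and NXT1 were listed as up and the other 12 as down.

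The members were sorted into 24 lists of complexes and roles, which hold 132 of them. The other 3 members are RP9, listed as up, and TACC3, a gene of the mitotic spindle, and the readthrough gene ISY1-RAB43, listed as down. The lists hold 410 genes in all, of which 271 were not listed and 7 were listed but fall outside the members by the subtraction. Of the 20 lists with 3 or more members, 1 held members listed as up alone, 6 held members listed as down alone and 13 were mixed. The bar chart of members by role shows how the directions fell.

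**Figure D1:**
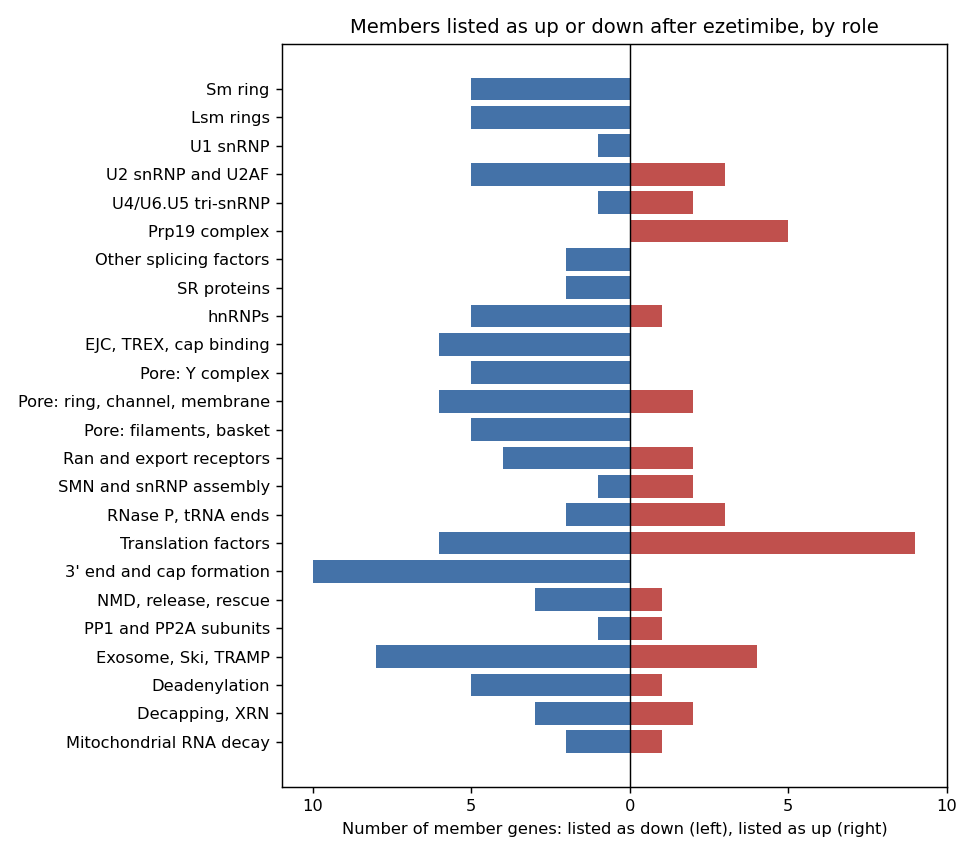
Number of members in each of the 24 role lists that the authors listed as up (bars to the right, red) or as down (bars to the left, blue) in 1 ezetimibe library against 1 control library. The Prp19 complex has bars to the right alone (5 genes), and 3′ end and cap formation has bars to the left alone (10 genes).

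Within the spliceosome, the members from the rings of the snRNPs were listed as down and those of the Prp19 list as up. Of all members 29.6% were listed as up, and of the other listed genes 32.7%, so down was the common direction. Of the 8 genes of the Sm ring, which encircles the small nuclear RNAs, 5 were members (62.5%, against 25.2% of all background genes). All 5 were listed as down (SNRPD1, SNRPD3, SNRPE, SNRPF and SNRPG). Of the 8 genes of the related Lsm rings, which bind U6 RNA in the nucleus and message ends in decay, 5 were members (also 62.5%). All 5 were listed as down (LSM3, LSM4, LSM5, LSM6 and LSM8). LSM1, which stands in the cytoplasmic decay ring alone, was not listed. Of the 19 genes of the Prp19 list, whose proteins activate the assembled spliceosome, 5 were members (26.3%, near the 25.2% of all background genes). All 5 were listed as up. They were PRPF19 itself, the ubiquitin ligase of the complex (ENSG00000110107; chromosome 11, 60890730 to 60906588, on the minus strand; coordinates are those of GENCODE 29, build GRCh38), XAB2, ISY1, BUD31 and PQBP1. The other 14 genes of that list were not listed. ISY1 shares exons with the readthrough gene ISY1-RAB43, listed as down, so its listing is uncertain. BUD31 and PQBP1 share exon bases with other protein-coding genes on the opposite strand.

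The U2 snRNP, which recognises the branch site, was split. Of the 23 genes of its list, 8 were members (34.8%, against 25.2% of all background genes). SF3A1, SF3A2 and the U2-associated CHERP were listed as up, and SF3B1, U2AF1, U2SURP and the helicases DDX46 and DHX15 as down. SF3B1 contacts the branch site and is a recurrent target of mutation in cancers (ENSG00000115524; chromosome 2, 197389784 to 197435091, minus strand). U2AF1 reads the 3′ splice site; GENCODE also annotates a near copy, U2AF1L5, so its listing is uncertain. Of the U4/U6.U5 tri-snRNP list, PRPF6 and SART1 were listed as up and the cyclophilin PPIH as down, and 13 of its 16 genes were not listed.

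The SR proteins, which bind exonic enhancers, had 2 members of 13 genes (15.4%, against 25.2% of all background genes), SRSF1 and SRSF10, both listed as down. The splicing factors PRPF38B and RBM25 were also listed as down. Of 13 genes on the hnRNP list, 6 were members (46.2%, against 25.2% of all background genes) and 7 were not listed. Of 6 members among the hnRNPs, a family of nuclear RNA-binding proteins, HNRNPA1L2, HNRNPA3, HNRNPM, RBMX and RBMXL1 were listed as down and HNRNPC, which binds uridine tracts, as up. HNRNPA1L2 and RBMXL1 are retrocopies of HNRNPA1 and RBMX, so reads could be split between copy and parent and their listing is uncertain.

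Of 23 genes of the exon junction complex, which marks spliced messages, of the export complex TREX and of the cap-binding complex, 6 were members (26.1%, near the 25.2% of all background genes) and 17 were not listed. The core exon junction gene MAGOHB, PNN, the TREX subunits THOC1, THOC2 and THOC7, and the cap-binding subunit NCBP1 were all listed as down, where 29.6% of all members were listed as up. MAGOHB is a near copy of MAGOH, which was not listed.

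The bases before a RefSeq start of PNN, SRSF1 and MAGOHB, members of these lists, are shown beside those of 3 Prp19 genes listed as up, as examples of members of either direction. The 250 bases before the first RefSeq start of each gene are given 5′ to 3′ (RefSeq promoter table, GRCh38.p14). Capitals mark CCGGAAG or its reverse complement CTTCCGG, the core bound by ETS-family factors. The Prp19 genes were chosen after their direction was seen. In GENCODE the windows of MAGOHB and BUD31 lie wholly inside the gene, since the RefSeq start is 645 and 328 bases after the 5′ end of the gene there; for the other 4 genes it is 18 to 230 bases after that end.
MAGOHB (chr12:10612979-10613228, minus strand, listed as down): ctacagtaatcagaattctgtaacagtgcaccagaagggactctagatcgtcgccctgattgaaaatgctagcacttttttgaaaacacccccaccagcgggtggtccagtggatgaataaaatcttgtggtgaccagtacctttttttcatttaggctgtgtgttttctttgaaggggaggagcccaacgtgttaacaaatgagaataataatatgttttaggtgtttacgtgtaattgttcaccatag
PNN (chr14:39175004-39175253, plus strand, listed as down): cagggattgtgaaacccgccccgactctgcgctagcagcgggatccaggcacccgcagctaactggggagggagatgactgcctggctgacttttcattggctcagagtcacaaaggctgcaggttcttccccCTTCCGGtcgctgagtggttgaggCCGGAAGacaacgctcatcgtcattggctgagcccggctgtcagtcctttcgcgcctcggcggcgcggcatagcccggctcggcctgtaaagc
SRSF1 (chr17:58007247-58007496, minus strand, listed as down): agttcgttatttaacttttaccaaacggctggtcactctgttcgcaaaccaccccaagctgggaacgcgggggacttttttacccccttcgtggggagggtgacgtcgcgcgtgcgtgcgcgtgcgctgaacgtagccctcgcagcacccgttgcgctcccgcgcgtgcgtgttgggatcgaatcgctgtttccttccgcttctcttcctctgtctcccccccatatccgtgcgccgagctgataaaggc
BUD31 (chr7:99408719-99408968, plus strand, listed as up): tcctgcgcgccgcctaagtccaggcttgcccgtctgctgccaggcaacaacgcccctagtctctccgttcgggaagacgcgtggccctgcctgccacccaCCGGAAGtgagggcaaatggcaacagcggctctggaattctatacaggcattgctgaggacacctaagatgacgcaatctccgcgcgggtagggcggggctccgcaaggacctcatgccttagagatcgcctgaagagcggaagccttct
ISY1 (chr3:129161064-129161313, minus strand, listed as up): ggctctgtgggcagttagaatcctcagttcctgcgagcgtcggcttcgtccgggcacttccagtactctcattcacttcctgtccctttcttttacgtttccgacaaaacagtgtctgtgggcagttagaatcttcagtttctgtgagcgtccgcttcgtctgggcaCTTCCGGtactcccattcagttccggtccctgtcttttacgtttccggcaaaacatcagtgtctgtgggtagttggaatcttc
PQBP1 (chrX:48897680-48897929, plus strand, listed as up): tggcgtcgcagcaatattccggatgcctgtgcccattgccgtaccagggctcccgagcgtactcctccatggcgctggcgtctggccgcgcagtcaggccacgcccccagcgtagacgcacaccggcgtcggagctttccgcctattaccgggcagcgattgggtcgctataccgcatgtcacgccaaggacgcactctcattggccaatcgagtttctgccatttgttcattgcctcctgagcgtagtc
The marked letters occur 2 times before PNN and 1 time each before BUD31 and ISY1, and not in the windows of MAGOHB, SRSF1 and PQBP1. In these windows GC content was 62.0% for BUD31 and PQBP1 and 51.6% for ISY1, listed as up. It was 62.8% for PNN, 60.0% for SRSF1 and 41.2% for MAGOHB, listed as down.

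Promoters of the members differed little in base composition by direction. A RefSeq promoter window of 300 bases (250 before the start and 50 after it) was found for 34 members listed as up and 86 listed as down. Their median GC content was 62.3% and 62.0%, and in the part before the start the order turned (62.0% and 62.4%). The ETS core CCGGAAG, searched on both strands, was in 16 of 34 windows of members listed as up (47.1%) and 22 of 86 of those listed as down (25.6%). It was in 10.7% of all 27305 genes' windows, in 17.2% of the other genes listed as up and in 11% of the other genes listed as down. For 30 of the 120 members, 11 listed as up and 19 as down, the bases before the RefSeq start lie wholly inside the gene as GENCODE annotates it. Without these 30, a setting added after the data were seen, the shares were 47.8% and 23.9%. In the 50 bases after the start alone, the shares were 11.8% and 5.81%. No test is given, since direction comes from the comparison that chose the members. Members listed as up that hold it in the full window include XAB2, SF3A1, SF3A2, PRPF6, SART1, NXT1, EIF3I, EIF2B2, EDC3 and SKIV2L. Those listed as down that hold it include NUP107, NUP160, SNRPE, SNRPG, LSM5, LSM8, CPSF3 and PNN. TGACG, the core of the cyclic AMP response element, was in 55.9% of windows of members listed as up and 45.3% of those listed as down, against 25% of all genes' windows. Among the other listed genes it was in 39.0% (up) and 29.1% (down). The GC box GGGCGG was in 67.6% and 61.6%, against 44.6%, and CCAAT in 38.2% and 41.9%, against 35.7%. Among the other listed genes the GC box was more frequent than in members, at 71.8% (up) and 67.7% (down), and CCAAT was in 38.8% and 37.1%. TATAAA was in 8.82% and 2.33%, against 12%. A match is a run of letters and not a measured binding site. No motif searched contains another.

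Of 42 genes on the 3 lists of the nuclear pore, the channel for export, 18 were members, 2 listed as up and 16 as down (11.1% up, against 29.6% of all members). On the 3 lists, a further 23 genes were not listed, and 1, SEC13, was listed but taken out by the subtraction. From the Y complex, the outer scaffold ring, NUP107, NUP160, NUP133, NUP85 and NUP37 were listed as down. SEC13, which the pore shares with the coat of transport vesicles, was listed as up. From the inner ring and membrane set, NUP205, NUP155, NUP35, NDC1, NUP210 and the copy POM121L2 were listed as down. The membrane nucleoporin genes POM121 and POM121C were listed as up; they are near-identical copies, so reads could be split between them and each listing is uncertain. From the filaments and the basket, RANBP2, NUPL2, NUP153, NUP50 and TPR were listed as down. All 12 members whose symbols begin with NUP were listed as down, a set that leaves out the pore genes POM121, POM121C and SEC13, listed as up.

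The list of soluble export factors holds 21 genes, of which 6 were members (28.6%, near the 25.2% of all background genes). Of these 6, 2 were listed as up (33.3%, near the 32.7% of the other listed genes). NXF1, the main receptor that takes messages through the pore, and its partner NXT1 were listed as up. NXT2, the paralogue of NXT1, was listed as down, as were XPO1, the receptor for proteins with export signals and for some RNAs (ENSG00000082898; chromosome 2, 61477849 to 61538626, minus strand), and the Ran GTPase activator RANGAP1. In snRNP assembly, SMN1 and the arginine methyltransferase PRMT5 were listed as up and GEMIN2 as down. These were 3 of the 14 genes of that list (21.4%, against 25.2% of all background genes). SMN1 has a near-identical copy in SMN2, so its listing is uncertain. In transfer RNA processing, the ribonuclease P subunits POP4, RPP21 and RPP25 were listed as up, and the subunit POP1 and the 3′ end nuclease ELAC1 as down. These were 5 of the 14 genes of that list (35.7%, against 25.2% of all background genes).

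KEGG also places translation factors under RNA transport, and here most members were listed as up. Of 55 genes, 15 were members (27.3%, near the 25.2% of all background genes). Of these 15, 9 were listed as up (60.0%, against 32.7% of the other listed genes) and 6 as down. Of 5 members from eIF3, the complex that loads the small ribosomal subunit, EIF3D, EIF3F, EIF3G and EIF3I were listed as up and EIF3E as down. The start codon factors EIF1 and EIF1B were listed as up and their partner EIF1AX as down. EIF2B2, a subunit of the exchange factor that the integrated stress response inhibits, was listed as up. The elongation factor EEF1A2 and the RNA-binding protein FXR2 were listed as up. The scaffold EIF4G3, the cap-binding repressor EIF4EBP2, and FMR1 and its partner CYFIP2 were listed as down. Outside the members by the subtraction, the cap-binding protein EIF4E was listed as down and its repressor EIF4EBP1 as up.

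All members of 3′ end formation were listed as down, the direction of most listed genes. Of all members 29.6% were listed as up, and of the other listed genes 32.7%. Of the 30 genes on the list of cleavage, polyadenylation and capping, 10 were members (33.3%, against 25.2% of all background genes). They were CPSF2 and CPSF3, the latter the endonuclease that cuts the message, CPSF6 and NUDT21, which together set the choice of poly(A) site, CSTF3 and CSTF2T, PCF11, the poly(A) polymerase PAPOLA, the capping enzyme RNGTT, and the RNA-binding protein MSI2. CSTF2T is an intronless copy of CSTF2, which was not listed. In nonsense-mediated decay, UPF2, which bridges UPF1 to the exon junction complex (ENSG00000151461; chromosome 10, 11920022 to 12043170, minus strand), UPF3A and UPF3B were listed as down, and PELO, which rescues stalled ribosomes, as up. These were 4 of the 13 genes of that list (30.8%, against 25.2% of all background genes). The helicase UPF1 and the SMG genes of the list were not listed. PELO shares exon bases with ITGA1 on the same strand in GENCODE. Of 19 genes on the list of phosphatase 1 and 2A subunits, 2 were members (10.5%, against 25.2% of all background genes) and 14 were not listed. PPP2R5B was listed as up and PPP2R5C as down. PPP1CB, PPP1CC and PPP2R1B, also listed as down, are no members by the subtraction.

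The lists of the exosome, deadenylation and decapping hold 52 genes, of which 23 were members, 7 listed as up and 16 as down. Members were 12 of 21 genes on the exosome list (57.1%), 5 of 11 for decapping (45.5%) and 6 of 20 for deadenylation. Each is a larger share than the 25.2% of all background genes that were listed. The share up of these 23 members, 30.4%, lies near that of all members (29.6%) and of the other listed genes (32.7%). The core exosome, a ring of subunits that feeds RNA to nucleases, was split, with EXOSC1 and EXOSC4 listed as up and EXOSC8 and EXOSC9 as down. The nuclease DIS3L, the cofactors C1D and MPHOSPH6, the nuclear helicase SKIV2L2 and the tailing enzyme PAPD5 were listed as down, and ZCCHC7, a partner of SKIV2L2 and PAPD5 in the nuclear TRAMP complex, as up. Of the cytoplasmic Ski complex, the helicase SKIV2L was listed as up and the scaffold TTC37 as down.

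In tail shortening, CNOT1, the scaffold of the CCR4-NOT complex, the nucleases CNOT6 and CNOT6L, and PAN2 and PAN3 were listed as down. BTG1, an antiproliferative adaptor of CCR4-NOT, was listed as up. In decapping, the catalytic subunit DCP2, the helicase DDX6 and XRN1, the nuclease that degrades decapped messages from the 5′ end, were listed as down. The decapping enhancer EDC3 and the nuclear decapping enzyme NUDT16 were listed as up. In mitochondria, the RNA nuclease PNPT1 and the chaperonin HSPD1 were listed as down and the chaperone HSPA9 as up. The other genes outside the members by the subtraction were the heat shock genes HSPA1A, HSPA1B and HSPA6 and the enolase ENO2, listed as up, and HSPA2, listed as down. HSPA1A and HSPA1B are near-identical copies and uncertain.

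The direction of a member went with the base composition of its transcript. In the longest protein-coding transcript of GENCODE release 29, GC content had a median of 54.1% over the 40 members listed as up (from 38.7 to 66.6) and of 41.0% over the 95 listed as down (from 31.8 to 59.5). The medians of the other listed genes were 55.5% and 44.2%. The ranges of the members overlap. The member with the lowest value was C1D, at 31.8% and listed as down, and the member with the highest was SF3A2, at 66.6% and listed as up.

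**Figure D2:**
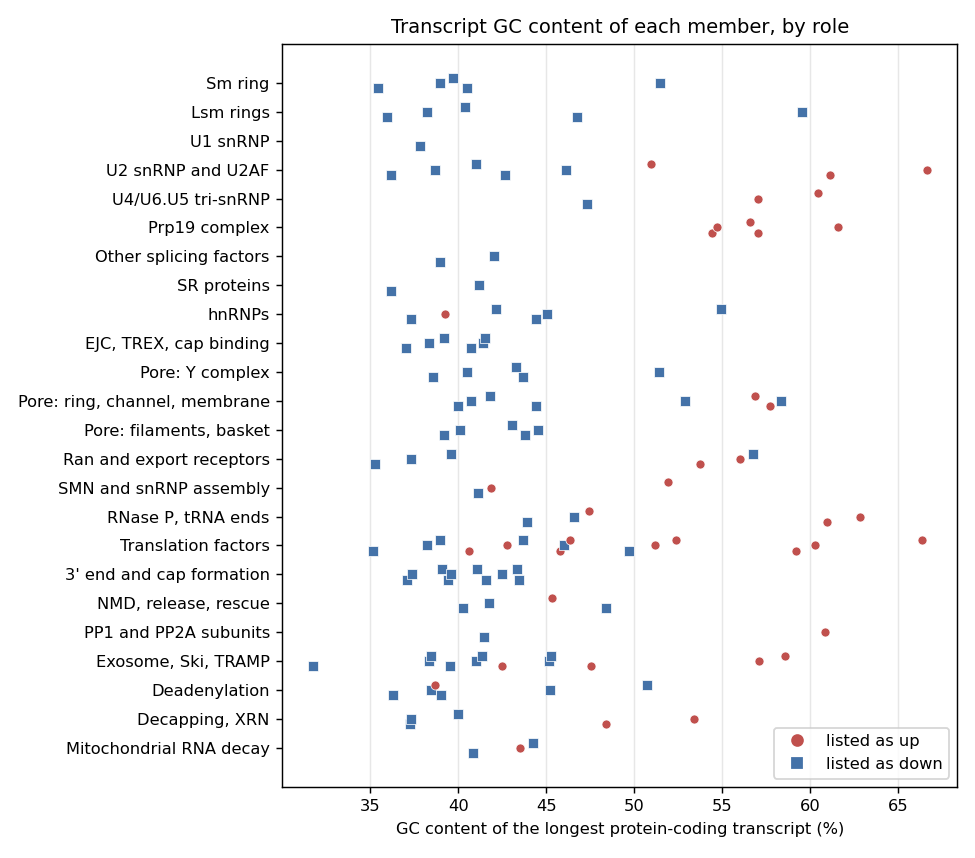
GC content of the longest protein-coding transcript (%, horizontal axis) of each of the 132 members in a role list, by list, with members listed as up as red circles and as down as blue squares; vertical offsets within a list only separate points. The 5 Prp19 members lie between 54.4 and 61.6%, and the 10 members of 3′ end and cap formation between 37.1 and 43.5%.

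Lists whose members shared a direction differed in how widely their GC content spread. The 5 Prp19 members, all listed as up, lay between 54.4 and 61.6%. The 10 members of 3′ end and cap formation lay between 37.1 and 43.5%, and the 6 of the exon junction, TREX and cap-binding list between 37.0 and 41.5%, and all of these were listed as down. In the split U2 list, SF3A1, CHERP and SF3A2, listed as up, lay between 50.9 and 66.6%. U2AF1, the highest of the members of that list that were listed as down, had 46.1%. Not every mixed list was ordered so. HNRNPC, listed as up at 39.2%, lay between HNRNPA3 (37.3%) and HNRNPM (54.9%), both listed as down. BTG1, listed as up at 38.7%, lay between CNOT6L (36.3%) and PAN2 (50.7%), both listed as down. Other lists with members listed as down alone were wider: the Sm members ran from 35.4 to 51.4% (median 39.7), the Lsm members from 36.0 to 59.5% (median 40.4) and the Y complex of the pore from 38.6 to 51.4%. Mixed lists could be narrow, as the mitochondrial list, from 40.8 to 44.2%. LSM4, at 59.5%, had the highest value of any member listed as down.

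Paralogues of opposite direction, picked after their directions were seen, differed in the same way. NXT1, listed as up, had 56.0% GC and NXT2, listed as down, 35.3%. FXR2, listed as up, had 59.2% and its relative FMR1, listed as down, 39.0%. PPP2R5B, listed as up, had 60.9% and PPP2R5C, listed as down, 41.5%. POM121, listed as up, had 57.7% and POM121L2, listed as down, 52.9%.

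All listed genes were divided into 5 classes of equal size by transcript GC content. In the lowest class, up to 40.4%, 2 of 42 members were listed as up (4.76%), against 4.94% of the 405 other genes. In the next, up to 44.6%, 5 of 39 members were (12.8%, against 12.3%). In the middle class, up to 51.0%, 8 of 20 members were listed as up (40%, against 31.1%). In the fourth class, up to 58.0%, 14 of 20 were (70.0%, exact Clopper-Pearson 95% interval 45.7 to 88.1, against 52.7% of the others, 47.8 to 57.5). In the highest class 11 of 14 were (78.6%, 49.2 to 95.3, against 59.8%, 55.0 to 64.5). The intervals of members and other genes overlap in all 5 classes; they cover counting error alone and take genes as independent.

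**Figure D3:**
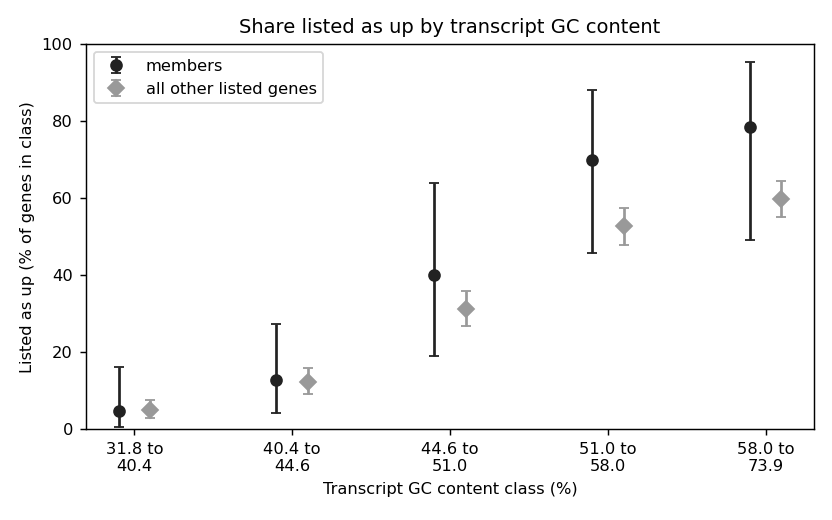
Share of genes listed as up (%, vertical axis) in 5 classes of transcript GC content, for members (circles) and for all other listed genes (diamonds); bars are exact Clopper-Pearson 95% intervals. The share of members rises from 4.76% in the lowest class to 78.6% in the highest.

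The 2 lowest classes held 81 of the 135 members, with 7 listed as up. These 7 were BTG1, HNRNPC, EIF3F, SMN1, ZCCHC7, EIF1B and HSPA9. The 2 highest classes held 34 members, with 9 listed as down. These 9 were NUP85, SNRPD3, POM121L2, HNRNPM, RANGAP1, TACC3, NUP210, ISY1-RAB43 and LSM4. They are the members whose direction went against the trend of their class.

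Medians differed along the body of the transcript and were close at its start. In the coding sequence the medians were 55.1% (up) and 43.3% (down), and at the third position of codons, where most synonymous changes fall, 63.5% and 39.5%. In the 3′ untranslated region they were 48.0% and 34.5%. In the 5′ untranslated region they were 62.7% and 62.8%, and in the promoter window 62.3% and 62.0%, as given above. Some members went apart from their transcript at the third position: BTG1, whose transcript has 38.7% GC and a 3′ untranslated region of 3805 bases, had 62.0% there, and EIF3F, at 40.6% and with 5843 bases, had 59.4%. HNRNPC, at 39.2%, had 48.5%.

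**Figure D4:**
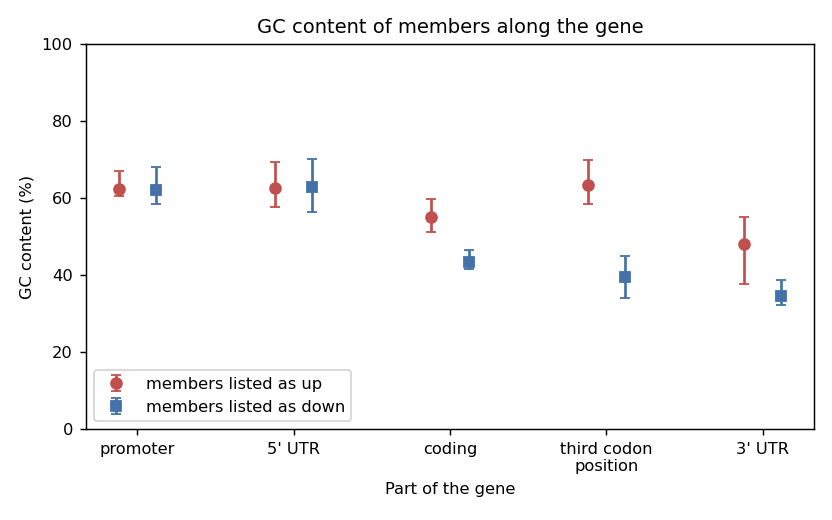
GC content (%, vertical axis) of 5 parts of the gene for members listed as up (red circles) and as down (blue squares); points are medians over genes and bars run from the lower to the upper quartile. The medians are 62.3 and 62.0% at the promoter, 62.7 and 62.8% at the 5′ untranslated region and 63.5 and 39.5% at the third codon position.

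Members listed as up also had shorter transcripts. The median length was 2893 bases (up) and 4411 (down), and the median 3′ untranslated region 592 and 1762 bases. With the median over all protein-coding transcripts of each gene in place of the longest, chosen after seeing the data, the lengths were 1188 and 1675 bases, so the difference was smaller. The median number of exons was 9 and 13, and the median gene span 13701 and 44168 bases. For the other listed genes the median length was 2657 and 4190 bases, and the 3′ untranslated regions were 838 and 1658 bases. Their median number of exons was 8 and 11, and their median gene span 18324 and 53940 bases. Among members in the 2 lowest GC classes, 4 of 31 with a 3′ untranslated region up to the median of all members (1279 bases) and 3 of 50 with a longer one were listed as up. Among those in the 3 higher classes, 22 of 37 and 11 of 17 were. XRN1, at 10143 bases, CPSF2, at 13035, and RANBP2, at 11711, were the longest transcripts of members, all listed as down.

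Some members share sequence with other genes. By GENCODE, 30 members share exon bases with another protein-coding gene, 14 of them listed as up and 16 as down, and no source used here says whether the counting used strand. They include BUD31, PQBP1, CHERP, SF3A1, SF3A2, EIF3G, EIF3I and SKIV2L among members listed as up, and EXOSC8, EXOSC9, SNRPD3 and THOC1 among those listed as down. ISY1, listed as up, shares its exons with the readthrough gene ISY1-RAB43, listed as down, so both are uncertain. RPP21, listed as up, shares exon bases with TRIM39-RPP21 on the same strand, so its listing is uncertain too. Without these 30 members, 26 were listed as up and 79 as down (24.8% up). The part of shared exons in the directions was not tested. LSM3, SNRPG, SNRPE and RANBP2 also have near copies or processed copies in the genome, and their listing is uncertain for that reason.

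Most members are under no other pathway. Of the 135, 110 are under none but the 4 pathways in the authors' deposited table, 31 listed as up and 79 as down. The other pathway with the most members was Ribosome biogenesis in eukaryotes, with NXF1, NXT1, POP4 and RPP25 listed as up and NXT2, XPO1, POP1 and XRN1 as down.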

How the data were processed

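The study has 1 control and 1 ezetimibe library of total RNA. The submitters' processing notes name the aligner HISAT2 2.0.4 and the assembler StringTie 1.3.0; no source used here states the genome build, annotation, threshold of the comparison or depth. The deposited table holds, per the file headers, numbers of genes listed as up and down under 327 pathways, and the authors' enrichment ratio (rich factor), p-value and q-value, which are printed as theirs. No reads or values per gene were used, so no model was fitted. Members were the union of 4 pathways minus 5 others, by Ensembl gene ID.

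The members and role lists were chosen with earlier results of these data known. Every member is named, except a few that are counted but not reported by name here; promoters follow a rule (3 members per direction from the SR and exon junction lists, alphabetically, with an entry in the promoter table), which gave no member listed as up, so 3 Prp19 genes were added. Of the list symbols, 416 had a gene ID and 6 older symbols did not. Transcript features came from GENCODE release 29 (GRCh38) for 2235 of 2238 genes and all 135 members. Promoters came from RefSeq (GRCh38.p14), the first start of a gene, for 120 members. Those without an entry include CHERP, CNOT1, EEF1A2, EIF3E, EIF3G, EXOSC1, EXOSC4, LSM6, NCBP1, POP1, SMN1, SNRPD1 and THOC7. Scripts were tested on simulated data. Figures were drawn with Matplotlib 3.10.9, intervals came from SciPy 1.17.1, and tables were handled in Python 3.11.15 with pandas 2.3.3 and NumPy 2.4.6. The alternatives on near copies, exon overlap, all starts, starts inside a gene and all transcripts were added after the data were seen.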

Additional observations from a re-analysis of the deposited data

How the results depend on the processing

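The share of members listed as up, 29.6%, lay between 24.8 and 31.9% in 9 alternatives: no subtraction (31.5%), leaving out each of the 4 pathways (27.0 to 31.1%), members under these pathways alone (28.2%) or under exactly 1 of them (31.9%), and, both added after seeing the data, without 12 members that have near copies or a readthrough (29.3%) and without those that share exon bases with another gene (24.8%). The set without those 12 still held RPP21, which shares exon bases with TRIM39-RPP21 on the same strand. Most of these sets share most of their genes, so their shares are not independent of each other. Without the subtraction the share up was 31.9% for Spliceosome, 33.3% for RNA transport, 16.0% for mRNA surveillance and 28.1% for RNA degradation. Counting genes listed anywhere in the table changed 4 of 24 role lists, and by more than 1.5 times in the list of phosphatase subunits alone, from 2 to 5 genes. The difference in transcript GC content between members listed as up and as down, 13.0 points, was 10.4 to 12.8 points in 3 alternatives. The difference in promoter GC content, 0.33 points, was between -2.0 and 0.75 points in 5 alternatives and changed sign among them. The share of promoters with CCGGAAG was higher among members listed as up in all 5 alternatives, by 5.95 to 23.9 points. No paired analysis was possible because each group has 1 library and the table holds no value per library. Leaving out a replicate was not possible for the same reason. Depth, levels and the authors' threshold are unknown, so a small change cannot be told from a large one.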

Other observations

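Other parts of the machinery that makes and uses RNA, named here after their directions were seen, had these counts of genes listed as up and as down in the authors' deposited table. Ribosome had 34 genes listed as up and 3 as down, at a median transcript GC content of 51.3%. Ribosome biogenesis in eukaryotes had 18 genes listed as up and 8 as down, at a median transcript GC content of 48.4%. RNA polymerase had 8 and 7 (48.5%), Aminoacyl-tRNA biosynthesis 8 and 5 (51.5%), Proteasome 6 and 6 (48.3%) and Basal transcription factors 3 and 9 (44.5%). The 4 pathways described above had median transcript GC contents from 41.2 to 43.9% and shares up from 16.0 to 33.3% in the authors' deposited table.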
